A study of Mus musculus with 12 samples.

Results

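The dCas9:gRNAscr-only regions are stretches of the mouse genome where dCas9 chromatin immunoprecipitation gave a peak with the scrambled guide and none with the guide against Il33. The peaks of 6 anti-FLAG libraries on assembled chromosomes were merged where they shared at least 1 bp, and a region was kept when at least 1 of the 3 dCas9:gRNAscr libraries and none of the 3 dCas9:gRNA3 libraries had a peak in it. This gave 342 of 7594 merged regions (4.5%). A peak of both guides was present in 922 regions, 998 had peaks in at least 2 dCas9:gRNA3 libraries alone, and 5332 had a peak in 1 dCas9:gRNA3 library alone. Membership was set by the peak lists themselves, so presence and absence of peaks are a description here and carry no test. A region without a listed peak is one where no peak passed the caller's threshold, which does not show that dCas9 was absent.

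Both groups were NIH-3T3 cells, a line of mouse fibroblasts. They carried a lentiviral, FLAG-tagged dCas9 that was made together with GFP, and GFP-positive cells were sorted before a lentivirus with gRNA3 or gRNAscr was added and selected with puromycin. The cells used for the immunoprecipitation were puromycin-selected populations that had received an empty vector in place of Cre recombinase. For each guide, 3 libraries were made from the anti-FLAG precipitate and 3 from the input, which is chromatin that was not immunoprecipitated. The methods of the paper call all of its replicates biological, while the labels do not say whether the 3 libraries of a guide came from separate cultures. The p-values below measure the spread between these libraries, part of which may be technical. Recovered depth was 22.2 to 28.8 M anti-FLAG reads in the dCas9:gRNAscr libraries and 21.6 to 27.1 M in the dCas9:gRNA3 libraries, while the lists held 88 to 1163 and 197 to 6685 peaks.

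dCas9 is a Cas9 protein that can no longer cut DNA but still binds it. It first recognises a short motif next to the target, the PAM (NGG for this Cas9, where N is any base), and then pairs its guide RNA with the DNA, starting at the bases next to the PAM, which are called the seed. A scrambled guide is chosen to have no full match in the genome and serves as the control for dCas9 that is not directed to a target.

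The members were searched on both strands for the 8-base sequence, directly before NGG, that was in the greatest excess over flanking windows, each as wide as its member and 2000 bp to the left or right of it. This sequence was CTAACTCA. It stood in 21 of 342 members (6.14%, exact binomial 95% confidence interval 3.84 to 9.23%), in 1 of 684 flanking windows, in 2 of 922 regions with peaks of both guides and in 1 of 6330 regions with dCas9:gRNA3 peaks alone. Of all 7594 regions, 24 (0.316%) held it. The sites of the 10 members that held it and had a peak in each dCas9:gRNAscr library are shown first, since they carry the pattern described below. They are written 5′ to 3′ from the reference sequence of mm10, each with 20 bases and the PAM. Capitals mark the 8 bases and the GG of the PAM, and the coordinates include the PAM.
Between genes, chr13:104588529-104588551, minus strand: gtgaatcatgagCTAACTCAtGG
Capzb intron, chr4:139205215-139205237, minus strand: aggcatagagagCTAACTCAgGG
Olfr282 intron, chr15:98431957-98431979, minus strand: agaccacaagggCTAACTCAgGG
Adam12 intron, chr7:134032080-134032102, minus strand: gtcttagctgagCTAACTCAaGG
Foxo3 UTR, chr10:42182018-42182040, plus strand: aaggcggcagagCTAACTCAcGG
Between genes, chr1:77934540-77934562, plus strand: gatgccagagagCTAACTCAtGG
Between genes, chr13:102624129-102624151, minus strand: cttcccagagagCTAACTCAaGG
Between genes, chr3:84411937-84411959, plus strand: tctaagacagagCTAACTCAtGG
Gm28539 intron, chr16:18888112-18888134, plus strand: aaagcctaggagCTAACTCAcGG
Between genes, chr4:56465853-56465875, plus strand: tgttggagagagCTAACTCAaGG

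The other 11 members with the 8 bases had a peak in 2 libraries (5 members) or in 1 (6 members). The sites of 4 of the 5 are set beside those above for comparison.
Retreg1 intron, chr15:25896259-25896281, minus strand: tctaaaggagagCTAACTCAgGG
Bcl2 intron, chr1:106707125-106707147, plus strand: ggtgacaaggagCTAACTCAgGG
Gm3764 intron, chr3:88224583-88224605, minus strand: agcatctctgagCTAACTCAtGG
Between genes, chr6:136258837-136258859, minus strand: tggccaagggagCTAACTCAtGG

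The likeness of the 21 sites ran past the 8 bases that had chosen them. Counting from 1 at the 5′ end, with position 20 next to the PAM, 18 of 21 sites had G at position 10, 18 had A at position 11 and 18 had G at position 12. At position 9 the most frequent base was A, in 11 of 21 sites, and at positions 1 to 8 no base was found in more than 10 of 21. Searches with other lengths returned the same end: TAACTCA in 24 members with 7 bases, GCTAACTCA in 18 with 9, AGCTAACTCA in 16 with 10 and AGAGCTAACTCA in 8 with 12. Over all 7594 regions these 7, 9, 10 and 12 bases stood in 38, 20, 16 and 8. The exception to the same end was the search with 6 bases, which returned GACTCA in 37 members. GACTCA stood in 208 of all 7594 regions, among them 68 of 922 with peaks of both guides and 103 of 6330 with dCas9:gRNA3 peaks alone. With 5 bases the search returned ACTCA, in 119 of 342 members (34.8%, interval 29.8 to 40.1%) against 25 of 684 flanking windows (3.65%). Of all regions, 573 (7.55%) held ACTCA before NGG, among them 153 of 922 with peaks of both guides (16.6%) and 301 of 6330 with dCas9:gRNA3 peaks alone (4.76%). A link between these bases and gRNAscr was not tested, since no sequence of that guide was used. The sequences were found in the members and are a description of them. The intervals cover counting error only.

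The position of the bases relative to the peaks was not used in the search. In dCas9:gRNAscr replicate 1, the summits of the peaks at 14 sites lay a median of 7 bp from the centre of the 8 bases, and 11 of 14 lay within 20 bp. The median was 8 bp in replicate 2, with 14 of 20 summits within 20 bp, and 8.5 bp in replicate 3, with 10 of 12. The farthest summits were 98, 77 and 65 bp away in replicates 1, 2 and 3. At the 3 regions that held the 8 bases and were not members, the 6 peaks had their summits a median of 134 bp away, from 20 to 194 bp. In a window of 50 bp to each side of the summit, at least 5 of the shared bases before NGG were found with dCas9:gRNAscr in 18.6, 12.2 and 27.4% of all peaks of replicates 1, 2 and 3. With dCas9:gRNA3 the shares were 2.59, 1.71 and 2.02% in the same order. The 3 shares of dCas9:gRNAscr were all above the 3 of dCas9:gRNA3, but the sequence had been chosen in the members, so no test is given.

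**Figure D1:**
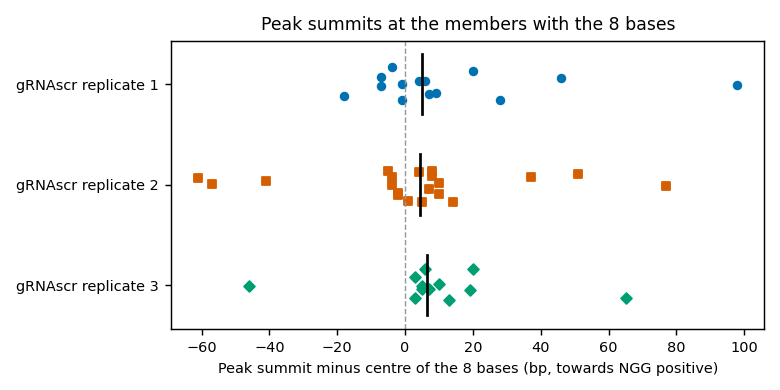
Distance in bp from the centre of CTAACTCA to the peak summit (x axis, positive towards NGG) for members with the 8 bases, 1 row per dCas9:gRNAscr library, with each point a peak and the black bar the median. Most summits lie within 20 bp of the bases (11 of 14, 14 of 20 and 10 of 12 in replicates 1, 2 and 3).

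The number of supporting libraries was low for most members. A peak in 1 library was all the support of 293 members, 37 had a peak in 2 libraries and 12 in all 3. Of all merged regions, 0.645% were members with such support from at least 2 libraries, and 0.158% had peaks in all 3. Replicate 2 alone supplied 268 of 342 members (78.4%), replicate 1 alone 21 and replicate 3 alone 4, while replicates 1 and 2 shared 31, replicates 2 and 3 shared 4 and replicates 1 and 3 shared 2. Without dCas9:gRNAscr replicate 2 there were 77 members, 14 of them with a peak in both other libraries. Without dCas9:gRNAscr replicate 1, 16 members had a peak in 2 libraries. Without dCas9:gRNA3 replicate 3, whose list is the longest, there were 746 members, 89 of them in at least 2 libraries. The membership of single regions thus rested to a large part on these 3 libraries.

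Support and sequence were found together. Of the 12 members in 3 libraries, 10 held the 8 bases, against 5 of 37 in 2 libraries and 6 of 293 in 1. Read the other way, 15 of 21 members with at least 8 bases of the shared sequence had peaks in at least 2 libraries (71.4%, interval 47.8 to 88.7%). With 5 to 7 bases this was 21 of 98 (21.4%, interval 13.8 to 30.9%), and with fewer than 5 bases 13 of 223 (5.83%, interval 3.14 to 9.76%). The members of replicate 2 alone held at least 5 bases in 75 of 268 cases and the 74 other members in 44. Without dCas9:gRNAscr replicate 2, the 8 bases stood in 15 of 77 members (19.5%) and 5 or more in 46 (59.7%). Without dCas9:gRNA3 replicate 3, they stood in 21 of 746 (2.82%) and 184 of 746 (24.7%). CTAACTCA was the leading sequence in each case.

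Peaks were ranked by fold enrichment, the pileup over the local background at the summit, within each library, since the values are not comparable between lists. Members supplied 66 of the 290 peaks of dCas9:gRNAscr replicate 1, while it was 315 of 1160 for replicate 2 and 22 of 84 for replicate 3. They took 8, 7 and 6 of the first 10 ranks in replicates 1, 2 and 3. The median rank percentile of the members, where 0 is the strongest peak, was 33.6, 46.5 and 23.2, and that of the peaks at regions shared by both guides was 51.7, 50.3 and 61.3. The lowest fold enrichment of a member was that of the whole list in replicate 1 (2.19), close to it in replicate 2 (2.28 against 2.22) and above it in replicate 3 (4.21 against 2.67), and 48.9% of those in replicate 2 stood in the lower 50% of the list. The median pileup at the summit was 40, 35 and 44.5 reads in replicates 1, 2 and 3, from lows of 25, 23 and 28 reads.

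**Figure D2:**
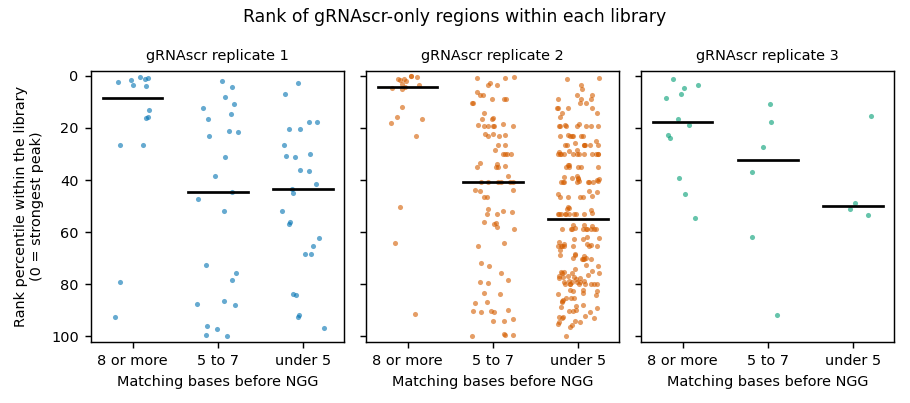
Rank percentile of each member peak by fold enrichment within its library (y axis, 0 the strongest peak) in the 3 dCas9:gRNAscr libraries, by how many of the shared bases stand before NGG; black bars are medians. Peaks with 8 or more bases have medians of 8.45, 4.44 and 17.9 in replicates 1, 2 and 3, and peaks with fewer than 5 bases lie lower, with medians of 43.4 in replicate 1 and 50 in replicate 3.

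Long matches were found at high ranks within each library. In replicate 1 the median fold enrichment was 9.32 for 14 members with at least 8 bases, 6.13 for 25 with 5 to 7 bases and 6.27 for 27 with fewer. In replicate 2 the medians were 8.52 (20 members), 6.02 (89) and 5.62 (206), and in replicate 3 they were 8.97 (12), 7.84 (6) and 6.78 (4). The longest matches had the highest median in all 3 libraries, while the 2 shorter classes were not in the same order in replicate 1. The ranges overlapped, since the lowest fold enrichment with at least 8 bases was 4.24, 4.26 and 6.52 in replicates 1, 2 and 3.

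The strongest member was the region chr13:104588210-104588802, between genes and 203682 bp from the nearest protein-coding start, that of Srek1ip1. It ranked 1 in each dCas9:gRNAscr library, with pileups of 173, 191 and 117 reads in replicates 1, 2 and 3. Its match was 11 bases long. The member in an intron of Adam12, a membrane metalloprotease, also matched 11 bases and had a fold enrichment of 15.1, 26.5 and 12.0. It ranked 5, 2 and 7. The member in an intron of Capzb, the beta subunit of the protein that caps actin filaments, matched 12 bases with a fold enrichment of 16.9, 14.1 and 14.5 and ranks of 2, 12 and 3.

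The member at Olfr282, an olfactory receptor gene, lay 92 bp from its start, closer to a protein-coding start than any other of the 12. It matched 9 bases, with 15.9-fold, 20.4-fold and 12.1-fold enrichment in replicates 1, 2 and 3. In the UTR of Foxo3, a forkhead transcription factor, the fold enrichment was 13.1, 12.7 and 12.6, with ranks of 7, 13 and 4. The member nearest to the start of Pax3, a developmental transcription factor, lay 262089 bp from it and had values of 10.8, 8.78 and 9.06. That near Cd180, a receptor of B cells and other immune cells, lay 69358 bp from its start, with 10.8, 10.2 and 8.66. The lowest of the 12 in replicates 1 and 2 was the region chr4:56465733-56466024, between genes, at 4.24, 5.38 and 7.15. It matched 12 bases all the same, and its rank was 269 among 290 peaks in replicate 1 and 744 among 1160 in replicate 2.

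The remaining 3-library members with the 8 bases had lower values than Foxo3 in every library. The member between genes at chr3:84411801-84412129, 41634 bp from the start of Fhdc1, had 7.64, 9.59 and 8.88 in replicates 1, 2 and 3. The member in an intron of Gm28539, 10561 bp from the start of the histone chaperone gene Hira, had 6.89, 7.47 and 6.52, the last of which was the lowest of the 12 in replicate 3. Both were thus well below Capzb in every library, although their matches were 12 and 11 bases long.

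The other 2 members in all 3 libraries lacked the 8 bases. One lay in an intron of Fmn1, a formin that nucleates actin filaments, and had a fold enrichment of 13.5, 16.6 and 11.1 in replicates 1, 2 and 3. It held the last 5 bases, with the summit 12 bp away, in the site given here with those 5 bases and the GG in capitals.
Fmn1 intron, chr2:113539278-113539300, plus strand: agcctttgaattgccACTCAtGG
The other was the region chr8:92772309-92772743, between genes and 54548 bp from the start of Mmp2, a gelatinase that cleaves matrix proteins. Its fold enrichment was 9.41, 14.9 and 10.1, and its longest match was 4 bases. These values were above the median of the members with the 8 bases in each library.

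Members in 2 libraries that lay in or near the start of a protein-coding gene were led by Vmn1r40, a vomeronasal receptor gene, 443 bp from the member. The fold enrichment there was 8.25 in replicate 1 and 14.8 in replicate 2. In an intron of Elf4, an ETS transcription factor on chromosome X, the values were 10.6 and 6.91 in replicates 1 and 2. In an intron of Myl4, an atrial myosin light chain, they were 15.5 in replicate 2 and 8.25 in replicate 3, and in an intron of Bcl2, which blocks apoptosis, 6.89 in replicate 1 and 6.70 in replicate 2. By rank percentile within the library, the member at Elf4 stood at 4.14 in replicate 1 and 19.1 in replicate 2, and that at Vmn1r40 at 10.7 and 0.862. Elf4, Myl4 and Vmn1r40 held 5 of the shared bases, as did the members in introns of Lamc1, a laminin subunit, with 7.61 and 6.30 in replicates 1 and 2, and of Daam1, a formin-related protein, with 6.13 and 5.71. In an intron of Retreg1, a receptor for the breakdown of endoplasmic reticulum, the values were 7.05 in replicate 2 and 7.42 in replicate 3.

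**Figure D3:**
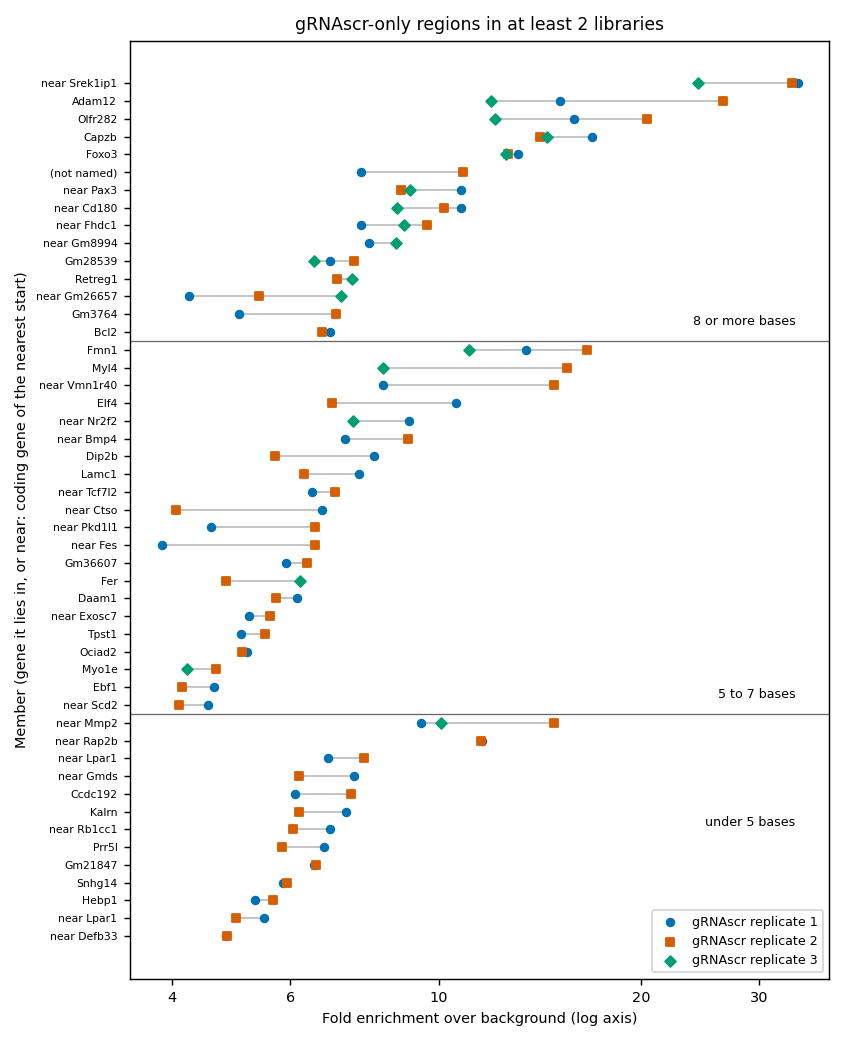
Fold enrichment over local background (x axis, log scale) of the 49 members supported by at least 2 libraries, 1 row per member, with a symbol for each library that had a peak and a grey line over their range. The rows are grouped by the length of the match before NGG, and of the members with 8 or more bases the one near Srek1ip1 reaches 34.2, 33.6 and 24.3 in replicates 1, 2 and 3.

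How much of the genome carries the shared sequence was counted next, on the assembled chromosomes. Sites with exactly 8 matching bases before NGG numbered 3043, of which 3 overlapped a dCas9:gRNAscr peak (0.0986%). Of 406 sites with 9 bases 4 did (0.985%), and of 149 with 10 bases 1 did (0.671%). With 11 bases the count was 7 of 41 (17.1%, interval 7.15 to 32.1%), and with 12 or more it was 8 of 21 (38.1%, interval 18.1 to 61.6%). For dCas9:gRNA3 peaks the counts were 1, 1, 0, 0 and 0 at the same sites, in the same order. By library, the 21 sites with 12 or more bases had a peak at 6, 8 and 7 in dCas9:gRNAscr replicates 1, 2 and 3. The shared sequence was read from sites in these peaks, so that the shares for long matches are a description and not an independent rate.

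**Figure D4:**
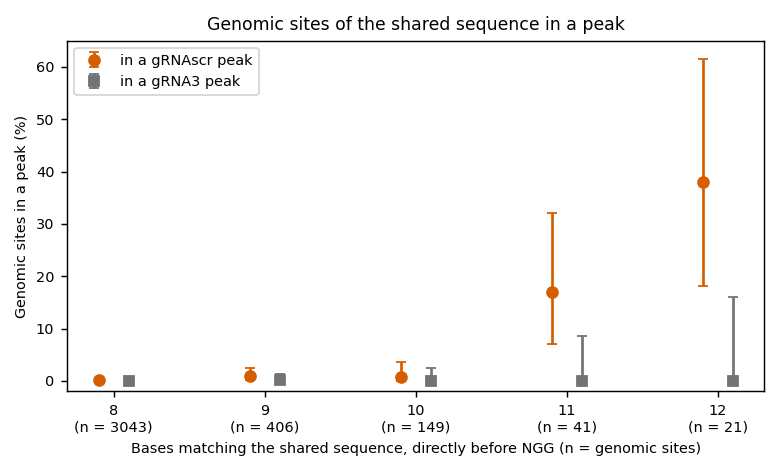
Share of genomic sites that overlap a peak (y axis, percent) by the number of bases before NGG that match the shared sequence (x axis, with the number of sites), for dCas9:gRNAscr and dCas9:gRNA3 peaks with exact binomial 95% confidence intervals. For dCas9:gRNAscr the share is under 1% up to 10 bases, 17.1% at 11 and 38.1% at 12 or more, and for dCas9:gRNA3 no site with 10 or more bases overlaps a peak.

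The members were spread over genes much as all merged regions were. Taking the summit, 146 of 342 lay between genes (42.7%), 181 in introns (52.9%), 6 in UTRs, 6 in noncoding exons and 3 in coding exons. Among all regions 42.9% lay between genes and 51.3% in introns. A transcription start lay within 1 kb of 34 members (9.94%, interval 6.98 to 13.6%), against 12.2% of all regions, and a protein-coding start within 1 kb of 19 (5.56%), against 7.73% of all regions. By support, 23 of 293 members in 1 library lay within 1 kb of a start (7.85%), 10 of 37 in 2 libraries (27.0%, interval 13.8 to 44.1%) and 1 of 12 in 3 libraries. Without dCas9:gRNAscr replicate 2 the share was 13 of 77 (16.9%). Beside those named above, members within 1 kb of a protein-coding start included Casp14, a caspase of the skin, Il1rl1, the receptor of interleukin 33, and P4ha3, a collagen prolyl hydroxylase. Each had a peak in replicate 2 alone, with a fold enrichment of 8.18, 6.01 and 5.78. The start of Il1rl1 was 83 bp away.

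Per library, the share of guide-only peaks within 1 kb of a start was 18.2, 10.2 and 9.09% in dCas9:gRNAscr replicates 1, 2 and 3. It was 17.2, 11.6 and 12.2% in dCas9:gRNA3 replicates 1, 2 and 3. The groups overlapped, with means of 12.5% ± 4.97 and 13.7% ± 3.09 (SD, n = 3 each), and their difference was within the spread of the libraries (exact permutation test, two-sided, p = 0.6, where the smallest p of 3 libraries against 3 is 0.1). With starts within 5000 bp in place of 1 kb, the difference was -8.64 percentage points (exact permutation test, p = 0.1). Here and for GC content and masked share below, guide-only peaks were set by the guide labels and held fixed while libraries were permuted. The p-values for them are thus a description. Such peaks made up 22.8, 27.2 and 26.2% of the peaks in dCas9:gRNAscr replicates 1, 2 and 3. In dCas9:gRNA3 replicates 1, 2 and 3 the share was 63.2, 74.6 and 86.8%.

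The base composition of the members stood between that of their surroundings and that of the dCas9:gRNA3 regions. The median GC content of the members was 48.5% (quartiles 46.8 and 50.2%), against 43.8% in the windows 2000 bp to each side and 50.2% in all regions. Per library, the median of guide-only peaks was 48.0, 48.4 and 49.0% in dCas9:gRNAscr replicates 1, 2 and 3 and 51.7, 50.4 and 50.5% in dCas9:gRNA3 replicates 1, 2 and 3. The 2 groups did not overlap, and the difference of the means was -2.42 percentage points (48.5% ± 0.471 against 50.9% ± 0.742, SD, n = 3 each; exact permutation test, p = 0.1). This is the smallest p that the design allows, so that no difference between the guides could pass 0.05. All peaks of each library, also those shared by both guides, are a set that does not depend on the guide labels. With them the difference was -1.34 percentage points (exact permutation test, p = 0.1).

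Repeats were less frequent in the members than around them. The part of a region that the reference sequence masks as repeat had a median of 6.34% in the members and 20.4% in the flanking windows, and 149 of 342 members held no masked base (43.6%). Over all merged regions the median was 7.01% and 37.9% held none. Over libraries, the mean masked share of guide-only peaks was 7.01, 9.84 and 13.8% with dCas9:gRNAscr and 9.40, 11.5 and 12.0% with dCas9:gRNA3 in replicates 1, 2 and 3. These overlapped, and the means of 10.2% ± 3.43 and 10.96% ± 1.37 (SD, n = 3 each) did not differ by more than the spread (exact permutation test, p = 0.8). The members were a median of 240.5 bp wide, and the widest was 666 bp.

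**Figure D5:**
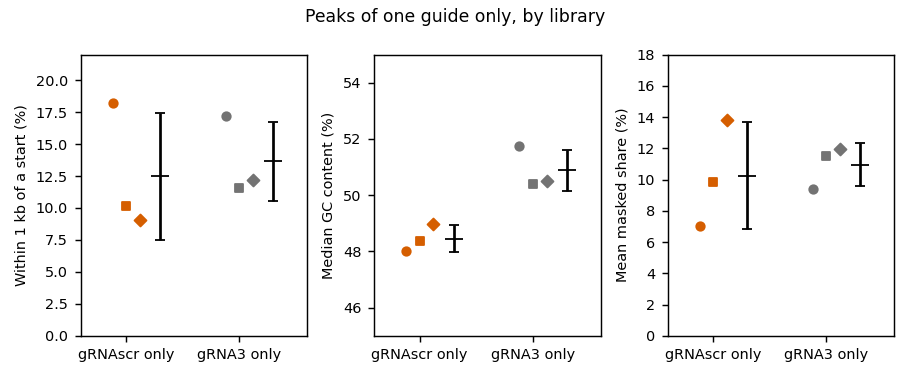
Guide-only peaks of each anti-FLAG library: share within 1 kb of a transcription start, median GC content and mean masked share, all in percent; circles, squares and diamonds are replicates 1, 2 and 3 and bars show the mean ± SD of 3 libraries. The GC axis starts at 45%, and the 3 dCas9:gRNAscr values (48.0 to 49.0%) lie below the 3 dCas9:gRNA3 values (50.4 to 51.7%), while the other 2 measures overlap.

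The windows of 100 bp to each side of the summits were also searched on both strands for motifs of factors active in fibroblasts. The AP-1 motif TGANTCA was in 30.1% of the members (interval 25.3 to 35.3%), 29.2% of regions with peaks of both guides, 23.2% of all regions and 7.31% of windows 2000 bp from the members. The TEAD motif GGAATG was in 21.6% of the members, 16.9% of all regions and 11.8% of the flanking windows. The GC box GGGCGG was in 2.34% of the members, 5.11% of all regions and 0.585% of the flanking windows. The RUNX motif TGTGGT was in 19.88% of the members, 20.04% of all regions and 16.96% of the flanking windows. For the ETS motif CCGGAA these shares were 3.22, 3.50 and 1.61%, and for the C/EBP motif TTGCNNAA 11.7, 9.32 and 6.43%. Members and all regions thus differed little for RUNX and ETS. The AP-1 motif can share its last bases with the 5-base sequence: of the 119 members with ACTCA before NGG, 23 (19.3%) had TG in front of it and so held TGACTCA. The same held for 48 of 153 such regions with peaks of both guides (31.4%) and 62 of 301 with dCas9:gRNA3 peaks alone (20.6%), so it was not particular to the members. None of the members with 8 bases or more was among these 23. CTAACTCA has TA in front of ACTCA, so such a site cannot hold TGACTCA and this absence is largely set by the grouping. Within 100 bp of the summit, 4 of the 21 members with 8 bases or more held the AP-1 motif (19.05%, interval 5.45 to 41.9%). Of 223 members with fewer than 5 of the shared bases, 24.7% held the AP-1 motif. A match of letters is not a measurement of binding by these factors.

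Gene lists that fit fibroblasts and the study were compared with the genes the members lay in or had as nearest protein-coding start. Of 25 extracellular matrix and fibroblast genes, Lox, Mmp2, Postn and Timp3 had a member, 4 of 342 members (1.17%) against 0.856% of all regions. Postn, which encodes periostin, had its start 3115 bp from a member with a fold enrichment of 6.18 in replicate 2 alone, and the members nearest to Timp3, an inhibitor of metalloproteases, and Lox, the collagen cross-linking enzyme, had 6.85 and 4.61 in the same library. Of these 4, Mmp2 alone had support in more than 1 library. No member was assigned to the actin and serum response genes (0.461% of all regions), to translation genes (0.0658%) or to the DNA methylation machinery (0.0790%). Il1rl1 was the single gene with a member among 8 of the Il33 neighbourhood and interleukin 1 family, 1 of 342 members (0.292%) against 0.325% of regions with peaks of both guides and 0.171% of all regions.

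The border of the rule was narrow in places. The 3 members nearest to a dCas9:gRNA3 peak lay 12 bp (in an intron of Gm42906), 13 bp (in an intron of Hipk1) and 18 bp (in a coding exon of Atf1) from it, each with a peak in replicate 2 alone at a fold enrichment of 5.66, 5.49 and 4.98. Of the regions just outside the rule, that in an intron of Pole4 had a dCas9:gRNA3 peak with a −log10 q-value of 1.35. The next was between genes at chr8:87071330-87071598 with 1.50, and the third, in an intron of Palm2, had 1.78. The Palm2 region had a fold enrichment of 9.99 with dCas9:gRNAscr and 2.99 with dCas9:gRNA3. In all, 36 members had a dCas9:gRNA3 peak within 1000 bp, and the median distance to the nearest was 28084 bp.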

How the data were processed

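Per the labels and the methods, the authors trimmed reads with Trim Galore 0.6.4, aligned them to mm10 with Bowtie2 2.3.4.1 and ran MACS2 2.2.7.1 on every anti-FLAG library separately. The deposited values used are the fold enrichment (a ratio of pileup to local background), the −log10 p-value and −log10 q-value at the summit, and the score made from the q-value. The printed command names no control. A figure legend names the input as control for the comparison of enriched regions between the guides, not for the peaks of each library. Read counts were not analysed here.

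Peaks on assembled chromosomes were merged and placed on GENCODE M21 and the RefSeq GRCm38 sequence. Distances run from the region to the nearest transcript start. Depth and pileups were recovered from the fold enrichment and the p-value. This assumes the peak caller's model and scaling to the input of the same number, which the printed command does not state. Libraries were compared by two-sided exact permutation tests, with the guide-only peaks held fixed. The named members are those in 3 libraries, the first 3 by fold enrichment per library, the first 10 by median rank in or near coding genes, up to 15 with the leading sequence, and those at the border of the rule. Of these 15, 1 is not reported here. Other named genes were chosen after their values were seen. The members, lists and the 8-base sequence were chosen with earlier results of these data known. Merging and searches were tested on simulated data. Alternatives were stricter peaks, other overlaps, windows and match lengths, and each library left out. Python 3.11.15, numpy 2.4.6, scipy 1.17.1, pandas, pysam 0.24.0, matplotlib 3.10.9 and samtools 1.23.1 were used.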

Additional observations from a re-analysis of the deposited data

How the results depend on the processing

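The number of members was 182 when peaks had to reach 5 in −log10 q-value, and 77 to 746 with 1 library left out. Those in at least 2 libraries numbered 14 to 89 with 1 library left out. The low values came without dCas9:gRNAscr replicate 2 and the high ones without dCas9:gRNA3 replicate 3. The share with the leading sequence before NGG was 10.99% at this threshold, 10.8% with 6 bases, 2.34% with 12 bases and 30.6% among members in at least 2 libraries. It was 2.82 to 19.5% with 1 library left out, where the omission of dCas9:gRNA3 replicate 3 was added after the data were seen, as were the shares with 5 bases and near starts without the same 2 libraries. With NAG as well as NGG the leading sequence was ACTCAGGG, in 8.19% of members. It holds ACTCA followed by GGG, so it contains the 5-base end before NGG. CTAACTCA stood before NAG in 1 member.

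The GC difference kept its sign under all 12 alternatives, and was -2.68 to -1.92 percentage points with 1 library left out. The exact permutation test gave p = 0.2 each time, the smallest p possible with 1 library left out. The difference in the share near a start changed sign with a fold enrichment of at least 4 (0.0534 percentage points) and with all peaks of each library (0.312), and was -4.11 to 0.586 with 1 library left out. The difference in masked share changed sign when peaks had to reach 5 in −log10 q-value (2.22) and with all peaks (0.966), and was -2.78 to 1.25 with 1 library left out. Their exact permutation p-values ranged from 0.1 to 1. The causes of these changes were not tested.

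The replicate number as a block (exact sign-flip test over 3 pairs, where the smallest p is 0.25) left the differences at -1.19 (p = 0.5), -2.42 (p = 0.25) and -0.732 percentage points (p = 0.75). Over 18 regions with a peak in all 6 libraries, same-numbered libraries had deviations correlated at 0.155, 0.107 and -0.109, and not every library went best with its own number, so the numbers were not taken to pair the samples.

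The weakest listed peaks had 23, 23 and 22 reads at the summit in dCas9:gRNAscr replicates 1, 2 and 3. In dCas9:gRNA3 replicates 1, 2 and 3 they had 28, 17 and 12 reads.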

Other observations

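Some genes held more than 1 member. The 168 members inside protein-coding genes lay in 152 genes, of which 14 held at least 2. The same count was not made for all merged regions, so it cannot be read as a trait of the members. In Fmn1 the second member had a fold enrichment of 4.14 in dCas9:gRNAscr replicate 2 alone, against 16.6 for the first in that library. In Tgfbr3, a co-receptor of TGF-beta, both members had a peak in replicate 2 alone, with 6.87 and 6.18. They lay close together, at chr5:107124292-107124619 and chr5:107124859-107125072, and whether they are 1 site was not tested. In Eps8, a regulator of actin, both had 6.87 in replicate 2. These genes were named after their values were seen.

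Members were few on the sex chromosomes. Chromosome X held 1 member, that in Elf4, and chromosome Y held 0, but all merged regions were also few there, 25 and 4. The highest number of members was 30 on chromosome 3, which was 6.15% of the 488 merged regions there. The highest number per 100 Mb was 21.1 on chromosome 15, where the 22 members were 4.69% of 469 regions, and the highest share of regions was 7.98% on chromosome 14. On sequences outside the assembled chromosomes no further region met the rule, so that the count with all sequences was also 342.

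Most long matches had no peak. Of the sites with at least 10 matching bases, 195 had no dCas9:gRNAscr peak, of which 11 (5.64%) were mostly masked as repeat, and 16 had a peak, of which 0 were masked. A start lay within 1 kb of 11 of the 195 and 1 of the 16. Accessibility of these sites was not measured here.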
